A study of Mus musculus with 2 samples.

Results

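The 10 genes described here make up the core of the circadian clock: the activators Clock, Arntl (also called Bmal1) and Dbp and the repressors Per1, Per2, Per3, Cry1, Cry2, Nr1d1 and Nr1d2. They were found by symbol among the spots of 2 Agilent two-colour expression arrays that are not controls. The 10 genes had 14 of the 55681 probes. Of these 14, 13 were kept as measured above background, among 26943 kept probes in all. Every member was therefore measured, as 10 of 19220 measured genes. The cells were mIMCD3, a tubule epithelial line of the mouse kidney derived from the inner medullary collecting duct, grown in medium with fetal bovine serum. One group received the bone-derived hormone FGF23 at 10 ng/mL for 4 h, and the other was cultured without it. Each array held RNA of both groups. FGF23 RNA carried the dye Cy3 on array 1 and Cy5 on array 2, so the dyes were swapped. The study looked for roles of FGF23 in tubule cells beyond mineral handling. No other agent or allele is named, and the labels name neither separate cultures for the arrays nor any step that would synchronise the clock of the cells. The p-values of the test across genes therefore rest on the spread between these 2 arrays, pooled mostly over all genes. That spread may be technical.

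In mammalian cells the clock is a feedback loop, in which CLOCK and ARNTL bind E-box sequences as a pair and drive the Per and Cry genes, whose proteins return to the nucleus and inhibit the pair. The same pair drives Nr1d1 and Nr1d2, whose products REV-ERB alpha and beta repress Arntl through ROR response elements, and Dbp, whose product activates D-box genes. In the kidney this clock is known to pace sodium and water transport along the tubule, the collecting duct included, and in cultured cells serum or glucocorticoids can shift it, with Per1 as an early responder.

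After 4 h of FGF23, none of the 10 clock genes passed the test across all genes. Dbp had the largest ratio of the 10. It was 1.22-fold higher with FGF23, with a log2 ratio of 0.29 ± 0.017 (SD, n = 2 arrays), and its adjusted p was 0.683. The 3 Per genes had mean log2 ratios of 0.0048 to 0.088, the 2 Cry genes 0.088 and 0.11, Nr1d1 -0.14, Nr1d2 0.044, Clock -0.10 and Arntl 0.029. Over all 19220 genes, limma's test at an adjusted p under 0.05 called 9 genes higher, 0.0468% of those tested, and 0 lower, 0%. The smallest mean log2 ratio among those 9 was 0.59. At an unadjusted p under 0.05, limma gave 1 of the 10 members, Dbp, beside 751 of all genes, 3.91%, of which 500 were higher and 251 lower.

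Promoter sequences of members that hold letters known as clock elements are given here, since the loop is known to act through such elements. Of the 10 members, 9 matched RefSeq promoter windows of mouse build GRCm38.p6, which run from 250 bases before to 50 bases after an annotated gene start. A script searched both strands for the E-box CACGTG, the variant CACGTT (here the E'-box), the D-box TTATGNAA, the core TAGGTCA of the ROR response element, and TGACG, a half-site of the cyclic AMP response element. Capitals mark the match, which may read in reverse complement. Each stretch is printed 5′ to 3′ on its gene's strand.
Per1 E-box, 166 bases before a start, chr11:69098773-69098798, plus strand: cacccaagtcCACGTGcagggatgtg
Per1 D-box, 24 bases before the same start, chr11:69098915-69098942, plus strand: gggcctggcaTTATGCAAcccgcctccc
Per1 cyclic AMP half-site, 132 bases before a second start, chr11:69100010-69100034, plus strand: gctcagcggcTGACGtcggtttccc
Per3 D-box, 158 bases before the start, chr4:151044806-151044833, minus strand: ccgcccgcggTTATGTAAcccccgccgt
Per3 D-box, 205 bases before the start, chr4:151044853-151044880, minus strand: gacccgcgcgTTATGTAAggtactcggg
Cry1 E-box, 60 bases before the start, chr10:85185099-85185124, minus strand: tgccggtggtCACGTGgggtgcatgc
Cry1 E'-box, 79 bases before the start, chr10:85185118-85185143, minus strand: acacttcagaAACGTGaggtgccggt
Cry2 E'-box, 166 bases before the start, chr2:92434220-92434245, minus strand: acatggtgggAACGTGagggggcgga
Nr1d1 E'-box, 28 bases before the start, chr11:98775390-98775415, minus strand: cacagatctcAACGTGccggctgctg
Arntl ROR element, 31 bases after a start, chr7:113207531-113207557, plus strand: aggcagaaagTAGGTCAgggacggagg

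Some genes have several windows, so shares are given per gene, over 27025 genes, and per window, over 32851 windows. An E-box was found for 2 members, beside 8.09% of genes and 7.15% of windows, and an E'-box for 3 members, beside 5.44% of genes and 4.68% of windows. The D-box was found for 2 members (3.99% of genes and 3.38% of windows) and the ROR core for 1 (2.97% and 2.61%). The cyclic AMP half-site was found for 3, namely Per1, Cry1 and Cry2 (23.0% and 20.8%). Only 1 of its matches is printed above. The others lie 246 bases before the Per1 start named first, 8 bases before that of Cry1 and 209 before that of Cry2. The windows of Clock, Dbp and Nr1d2 held none of the 5 motifs, which says only that these letters are not in these windows. Per2 is named only. A match is a description of sequence and was not measured as a bound site. Differences between members with the same element were not tested. Per1 and Cry1, with an E-box, had mean log2 ratios of 0.0048 and 0.11. Of the members with an E'-box, Cry1 had 0.11, Cry2 0.088 and Nr1d1 -0.14.

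Of the 62976 spots on an array, 59305 measured transcripts and none was saturated. Well above background were 48.2% and 48.7% of spots in Cy3 and 54.2% and 55.2% in Cy5. Over all genes the log2 ratios of the arrays had SDs of 0.15 and 0.13 and a Pearson correlation of -0.12 (Spearman -0.084) across genes (genes do not count as independent replicates). Spike-in RNAs, added at known ratios, returned a slope of 0.851 and 0.852 against those ratios in the file headers. The log ratios of the scanner software were therefore compressed. No such slope was computed for the ratios normalized here. Of the epithelial and collecting duct markers, 14 of 15 were above background, as were 3 of 5 proximal tubule, 2 of 5 macrophage, 2 of 5 endothelial and 0 of 5 fibroblast markers. None of these markers passed the test.

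All 13 kept clock probes were well above background in every channel, but they differed widely in signal. The mean spot signals, with background included, ran from 57.6 units for Per2 (unstimulated, array 2) to 2249 for Per1 (FGF23, array 2), over local backgrounds of 33 to 45. A different probe binds with a different strength, so signals of different genes were not ranked. For each kept probe the Cy5 signal was above the Cy3 signal on both arrays, whichever RNA it held. Ratios were therefore normalized by loess within each array before the arrays were set side by side. Dim probes also carry a compressed ratio, because an offset of 50 was added in background correction. A doubling of the net signal would read as a log2 change of 0.97 for the brighter Per1 and Cry2 probes, 0.96 for Dbp, 0.69 for Cry1, 0.65 for Nr1d1, 0.58 for Per3 and 0.54 for Per2.

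**Figure D1:**
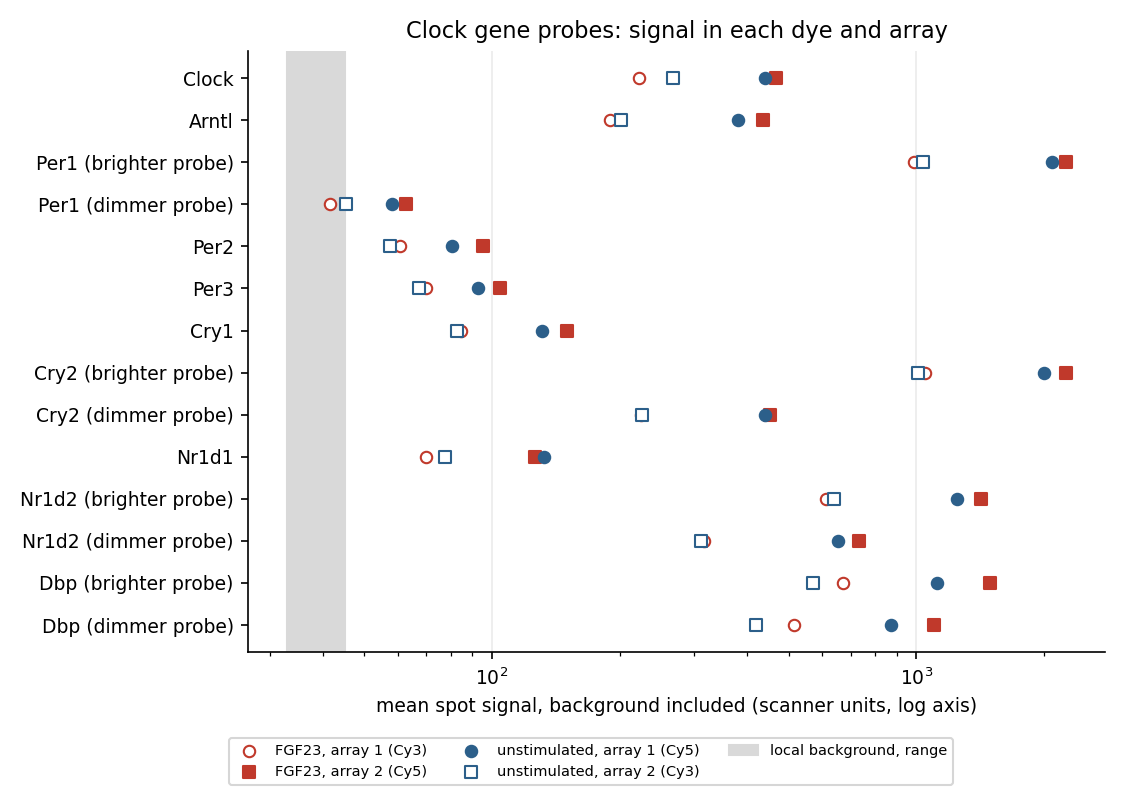
Mean spot signal of the 14 clock gene probes in each dye and array (log axis, scanner units, background included), with the range of their local backgrounds in grey. Cy5 values (filled) lie to the right of Cy3 values (open) for each probe, and only the dimmer Per1 probe reaches the background band.

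Clock and Arntl, the basic helix-loop-helix pair at the head of the loop, did not pass the test. Clock had mean signals of 222 with FGF23 and 439 without it on array 1, and 466 with and 268 without it on array 2. After normalization within and between arrays, its log2 levels were 8.417 and 8.451 with FGF23 and 8.453 and 8.621 without it, in the order of arrays 1 and 2. Both FGF23 levels thus lay below both unstimulated levels, though by little at the closest. Its log2 ratios of FGF23 over unstimulated were -0.037 and -0.17, with a mean of -0.10 ± 0.094 (95% interval -0.29 to 0.087, limma adjusted p 0.9999). The probe lies on chromosome 5 from 76641377 to 76641436, minus strand (mm9).

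Arntl, the partner without which the loop does not run, gave signals of 190 with and 380 without FGF23 on array 1, and 436 with and 202 without it on array 2. Normalized levels were 8.16 and 8.35 with FGF23 and 8.24 and 8.21 without it. The groups overlapped, and the arrays had opposite signs, with log2 ratios of -0.085 and 0.14 (mean 0.029 ± 0.16, 95% interval -0.17 to 0.23). Turned to Cy5 over Cy3, the same 2 values averaged 0.11 on the log2 scale, larger than that mean. With 1 array per dye order, a dye difference cannot be told apart from any other difference between the arrays. The probe lies on chromosome 7 from 120457261 to 120457320, plus strand (mm9).

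The 3 Per genes encode the proteins that carry the CRY repressors and set the timing of the loop. Per1, the member best known for a quick rise after serum or hormone, had signals of 988 with and 2081 without FGF23 on array 1, and 2249 with and 1036 without it on array 2. Its normalized levels were 10.52 and 10.59 with FGF23 and 10.55 and 10.55 without it. These groups overlapped. The log2 ratios were -0.024 and 0.034, and their mean of 0.0048 ± 0.041 had a 95% interval of -0.18 to 0.19. In fold terms the interval ran from 0.882 to 1.14, with no correction for any compression of the ratios. This probe lies on chromosome 11 from 68923364 to 68923423 (mm9). The other Per1 probe, at 68919895 to 68919954, was not well above background in any channel, with signals of 41.5 to 62.8, and entered no test. Its log2 ratios were -0.15 and 0.11.

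Per2 and Per3 were measured with dim probes. Per2 gave signals of 60.7 with and 80.8 without FGF23 on array 1, and 95.6 with and 57.6 without it on array 2. Both of its normalized FGF23 levels, 6.59 and 6.59, lay above both unstimulated levels, 6.51 and 6.50. The log2 ratios of 0.078 and 0.097 gave a mean of 0.088 ± 0.013, and the 95% interval of -0.098 to 0.27 held 0. Per3 had signals of 69.9 with and 92.8 without FGF23 on array 1, and 104.6 with and 67.3 without it on array 2. The normalized levels of Per3 were 6.71 and 6.64 with FGF23 and 6.58 and 6.67 without it. They overlapped, and its log2 ratios of 0.14 and -0.030 had opposite signs (mean 0.053 ± 0.12, 95% interval -0.14 to 0.25). The Per2 probe lies on chromosome 1 from 93313046 to 93313105, and that of Per3 on chromosome 4 from 150379256 to 150379315 (mm9).

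Cry1 and Cry2, the cryptochromes that block the CLOCK and ARNTL pair directly, had positive log2 ratios on both arrays and did not pass. Cry1 gave signals of 84.8 with and 131 without FGF23 on array 1, and 150 with and 83.0 without it on array 2, and normalized levels of 7.09 and 7.11 with FGF23 and 7.01 and 6.97 without it. The groups did not overlap, with FGF23 above. Its log2 ratios were 0.071 and 0.14, and the mean was 0.11 ± 0.048 (95% interval -0.082 to 0.29). The brighter Cry2 probe had signals of 1046 with and 1995 without FGF23 on array 1, and 2248 with and 1010 without it on array 2. Its levels of 10.60 and 10.58 with FGF23 lay above the 10.49 and 10.52 without it. Log2 ratios of 0.11 and 0.063 gave a mean of 0.088 ± 0.035 (95% interval -0.098 to 0.27).

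The dimmer Cry2 probe did not repeat that sign. Its signals were 225 with and 440 without FGF23 on array 1, and 451 with and 226 without it on array 2, and its log2 ratios were -0.033 and 0.012 (mean -0.010 ± 0.032). Its normalized levels overlapped. The brighter probe lies on chromosome 2 from 92243807 to 92243866 and the dimmer from 92251417 to 92251476, and the Cry1 probe on chromosome 10 from 84594731 to 84594790 (mm9).

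Nr1d1 and Nr1d2 encode the haem-binding nuclear receptors of the second loop. Nr1d1 had the lowest mean ratio of the 10 members. Its signals were 69.8 with and 133 without FGF23 on array 1, and 127 with and 77.7 without it on array 2, and its normalized levels were 6.80 and 6.89 with FGF23 against 7.07 and 6.91 without it. Both FGF23 levels lay below both unstimulated levels, but on array 2 by little. The log2 ratios were -0.26 and -0.013, so nearly all of the mean of -0.14 ± 0.18 came from array 1 (95% interval -0.34 to 0.062, limma p 0.159 unadjusted and 0.9999 adjusted). The probe is listed on chromosome 11 from 98630526 to 98631028 (mm9), a span of 503 bases against 60 for each of the other clock probes.

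Nr1d2 had 2 kept probes, and neither passed. The brighter gave signals of 611 with and 1246 without FGF23 on array 1, and 1421 with and 639 without it on array 2. Its normalized levels were 9.84 and 9.94 with FGF23 and 9.84 and 9.85 without it, which overlapped. The log2 ratios were -0.0020 and 0.090 (mean 0.044 ± 0.065, 95% interval -0.14 to 0.23). With the dimmer probe, the ratios were -0.063 and 0.22 (mean 0.078 ± 0.20), also with overlapping levels. The probes lie on chromosome 14, from 19036568 to 19036627 and from 19037253 to 19037312 (mm9).

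Dbp is a leucine zipper factor of the PAR family and a direct output of the CLOCK and ARNTL pair. Its normalized values were higher with FGF23 for both of its probes on both arrays, and it did not pass the test. The brighter probe had signals of 671 with and 1118 without FGF23 on array 1, and 1492 with and 572 without it on array 2. Its normalized levels were 9.96 and 10.02 with FGF23 and 9.68 and 9.71 without it. The dimmer probe had signals of 516 with and 872 without FGF23 on array 1, and 1099 with and 419 without it on array 2, and normalized levels of 9.59 and 9.60 with FGF23 and 9.35 and 9.24 without it. For each of the probes both FGF23 levels lay above both unstimulated levels, with a gap wider than the spread within either group.

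The log2 ratios of Dbp were 0.28 and 0.30 for the brighter probe and 0.24 and 0.36 for the dimmer one (mean 0.30 ± 0.083). The brighter probe, which stands for the gene in the test, had a mean of 0.29 ± 0.017 and a 95% interval of 0.11 to 0.48, or 1.08-fold to 1.39-fold. In limma its unadjusted p was 0.00481 and its adjusted p over 19220 genes was 0.683, so it did not pass. In a fit over all kept probes the adjusted p-values were 0.621 and 0.612. Its mean log2 ratio ranked at the 99.4th percentile of all genes. The deposited p-values of the scanner software for the brighter probe were 0.106 on array 1 and 0.140 on array 2, before any adjustment. Both probes measure the same RNA and are not replicates of each other. They lie on chromosome 7 from 52965322 to 52965381 and from 52965461 to 52965520 (mm9), without overlap.

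**Figure D2:**
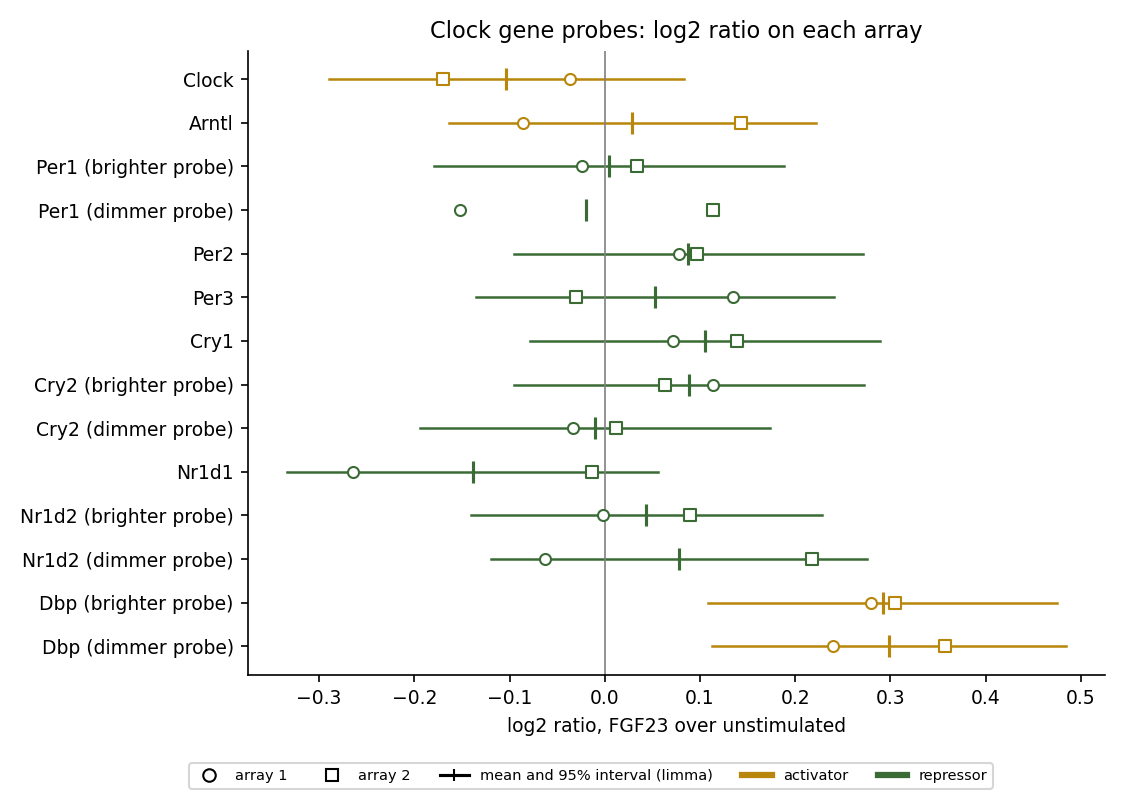
Log2 ratio of FGF23 over unstimulated for each clock gene probe on array 1 (circles) and array 2 (squares), with the mean and the 95% interval of limma's fit over all kept probes, coloured by role. The intervals are not adjusted for the number of probes. Only those of the 2 Dbp probes, which measure the same RNA, leave out 0, and their adjusted p-values in limma were 0.621 and 0.612. The dimmer Per1 probe, at background, has no interval.

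Activators and repressors were then set against each other. The activators' median log2 ratio was -0.037 on array 1, 0.14 on array 2 and 0.029 for the mean of both. For the repressors it was 0.071, 0.063 and 0.053. Repressors minus activators thus came to 0.11 on array 1 and -0.080 on array 2, opposite in sign, and to 0.024 for the means. Dbp is itself a target of the core pair, like the repressor genes. Without it the activators' median was -0.061 on array 1 and -0.013 on array 2, and the difference was 0.13 and 0.077 (0.090 for the means). No p was computed for these medians, which rest on 3 or 2 activators and 7 repressors. Over all genes the median was -0.012 on array 1 and 0.015 on array 2.

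Of the 10 members, 4 had ratios above 0 on both arrays (Dbp, Per2, Cry1 and Cry2), 2 below 0 on both (Clock and Nr1d1), and 4 changed sign between arrays. Over all genes 23.9% were above 0 on both arrays and 22.3% below. The same 4 and 2 members had normalized levels that did not overlap between the groups. That held for 17.5% of all genes with FGF23 above and 15.3% with FGF23 below. With 10 members, each of these shares differs from that of all genes by about 2 genes or fewer.

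**Figure D3:**
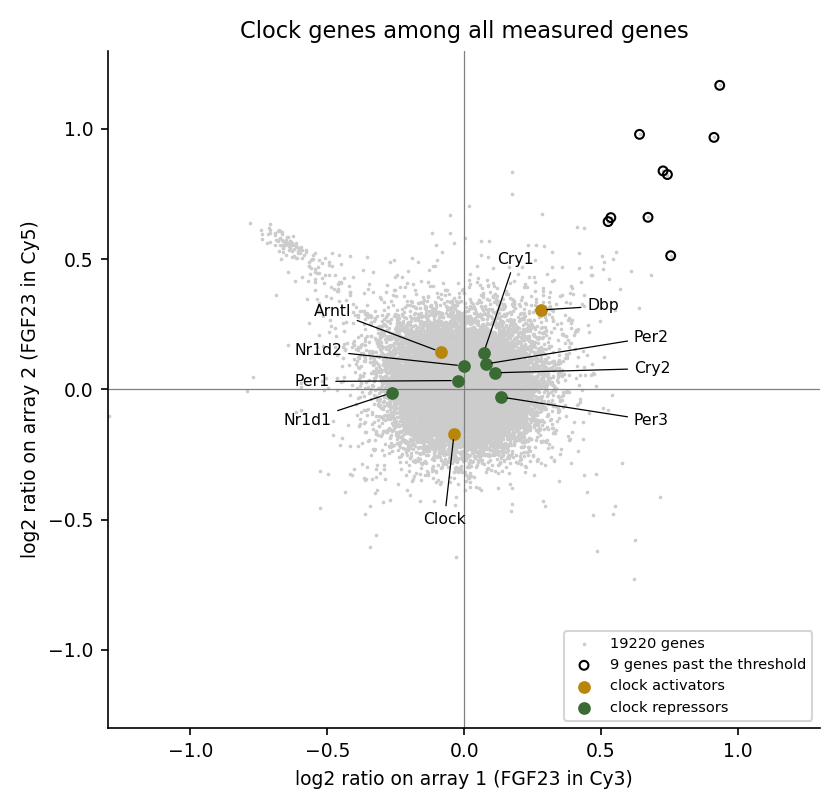
Log2 ratio on array 1 against array 2 for 19220 genes (grey), the 9 genes past the threshold (open circles) and the 10 clock genes by role; 1 gene lies beyond the axes at 1.3. Dbp, at 0.28 and 0.30, was not called, and the smallest mean among the called genes was 0.59. The other 9 clock genes lie within the bulk.

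Other genes were taken from lists of the clock's partners, regulators and outputs, and of genes often induced together with Per1. Limma's test at an adjusted p under 0.05 was passed by 0 of the 44 measured genes described here. At an unadjusted p under 0.05 there were 4 of 44, Rora, Cdkn1a, Sik1 and Klf9, beside 3.91% of all genes. Of the partners and accessory loop, 7 of 10 were measured. Their median log2 ratio was 0.037 (0.093 on array 1 and 0.017 on array 2), with 3 above 0 and 1 below 0 on both arrays. Rora, a nuclear receptor that activates Arntl at the element the REV-ERB proteins occupy, gave 0.17 and 0.30 (mean 0.23 ± 0.092, 1.17-fold, limma p 0.0204 unadjusted and 0.9999 adjusted). Its relative Rorb gave -0.14 and -0.19 (mean -0.16 ± 0.032), with -0.14 and -0.24 from its second probe. These probes were dim, with a log2 brightness of 6.87 for Rora and 6.83 and 6.69 for Rorb, beside 6.92 for Nr1d1. Ciart, a repressor of the CLOCK and ARNTL pair, gave 0.11 and 0.21 (mean 0.16 ± 0.071). Npas2, Bhlhe41 and Hlf were not measured above background.

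Of the kinases, ubiquitin ligases and other regulators of PER and CRY proteins, 15 of 16 were measured, with a median log2 ratio of 0.043 and opposite signs on array 1 (-0.016) and array 2 (0.069), and with 5 above 0 and 1 below 0 on both arrays. Gsk3b, a kinase of several clock proteins, had 0.14 ± 0.072, the F-box protein Fbxw11 0.085 ± 0.021, and the casein kinase Csnk1a1 0.079 ± 0.14, with -0.035 from its second probe. None passed. Fbxl21 was not above background.

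Among clock-controlled outputs, 11 of 13 were measured, with a median of 0.032 (array 1 gave 0.060 and array 2 gave 0.022) and with 2 above 0 and 1 below 0 on both arrays. Cdkn1a, the cell cycle inhibitor p21, had a mean log2 ratio of 0.22 ± 0.028 with its brightest probe and 0.040 and 0.056 with the other 2. Those 2 were dim, with a log2 brightness of 6.61 and 6.58 beside 11.6 for the brightest. Klf10 had 0.15 ± 0.18 and Tsc22d3, a glucocorticoid-induced regulator of sodium transport, 0.091 ± 0.15. For the sodium channel subunit Scnn1a the arrays gave -0.10 and 0.17. Gys2 and Klf15 were not above background.

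Of genes often induced together with Per1 by cyclic AMP or glucocorticoid signals, 11 of 12 were measured, with a median of 0.053 (array 1 gave 0.026 and array 2 gave 0.059), and with 6 above 0 and 1 below 0 on both arrays, beside 23.9% and 22.3% of all genes. The salt-inducible kinase Sik1 had 0.22 ± 0.14, the Krüppel-like factor Klf9 0.21 ± 0.21 and the AP-1 subunit Fosb 0.13 ± 0.045. None passed, and Nr4a3 was not above background. Zbtb16, whose value is the median of this list, was kept through the FGF23 channel alone, with 0.39 on array 1 and -0.28 on array 2.

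**Figure D4:**
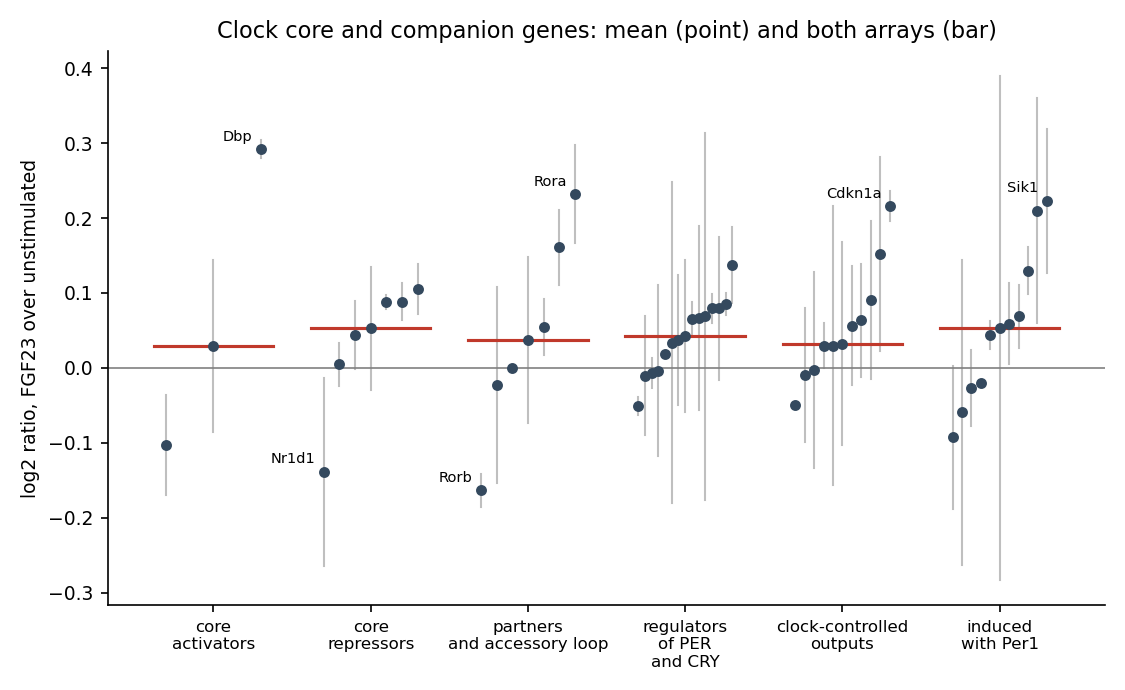
Mean log2 ratio (points) and the values of both arrays (ends of the grey bars) for the clock core genes and the measured genes of 4 companion lists, with list medians in red. Medians lie between 0.029 and 0.053, and Dbp has the highest mean of the genes shown.

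The arrays were processed in 8 other ways. Another filter, a fit over probes or another variance model leaves the members' mean ratios as they are by construction. An offset of 0, the scanner software's log ratio and median centring gave other values for all 10 members, and averaging of probes for the 3 with a second kept probe. Of these 33 values, all from the same 2 arrays, 32 kept their sign. The exception was Per1, at 0.0048, which became -0.0053 with median centring. Dbp stayed between 0.28 and 0.32. The dim probes moved most: Per2 reached 0.29, Per3 0.17 and Nr1d1 -0.27 with the scanner software's own log ratio, which adds no offset of 50. No member passed the test under any of the 8, and the lowest adjusted p of Dbp was 0.169, with a robust prior that follows intensity. With median centring the ratios of Dbp were -0.35 on array 1 and 0.91 on array 2, and its unadjusted p in limma was 0.626. Apart from Per2 and Per3, which were above 0 on both arrays, the other members also had opposite signs with median centring. This centring removes the median dye difference of each array but, unlike loess, not a dye difference that varies with brightness.

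**Figure D5:**
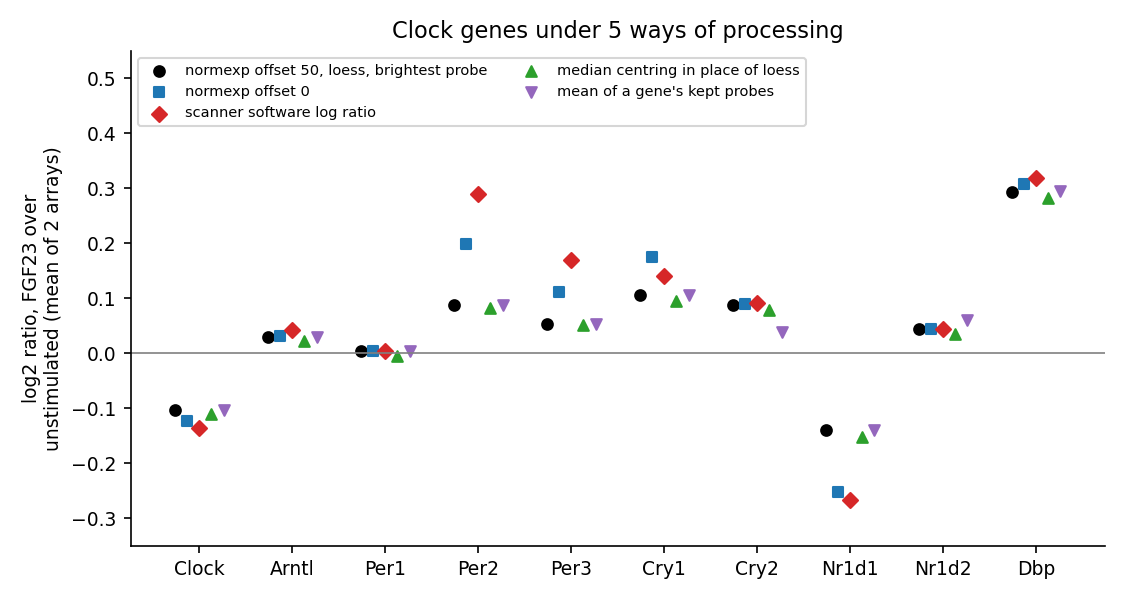
Mean log2 ratio of each clock gene over both arrays under 5 ways of processing. Dbp stays between 0.28 and 0.32, while the dim probes of Per2, Per3 and Nr1d1 move away from 0 with an offset of 0 or the scanner software's ratio.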

How the data were processed

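The deposited scanner output gave the mean signal and local background median per spot and dye as linear intensity, made by Feature Extraction 11.5.1.1, as the file headers state. Per the file headers, the deposited files also held a background-subtracted, dye-normalized log10 ratio of Cy5 over Cy3, and a p-value for it. Mean signals were corrected by normexp (offset 50) and loess in limma 3.58.1 (R 4.3.3), and ratios turned to FGF23 over unstimulated by the dye labels. Control and outlier spots were left out. Probes were kept where well above background on both arrays in 1 condition, and the brightest kept probe stood for its gene. The test was lmFit and eBayes with Benjamini-Hochberg adjustment over all genes (1 residual and 11.9 prior degrees of freedom). On data simulated with independent arrays its unadjusted p-values fell under 0.05 more often than they should in most draws, so intervals may be too narrow. The real arrays had a correlation of -0.12, and 3.91% of genes fell under 0.05. The simulation therefore cannot settle how narrow the intervals of these data are. Normalized levels per channel also had Aquantile scaling between arrays.

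All members were named, and of each companion list the 3 measured genes with the largest mean in size. One companion gene is not reported here and is left out of the counts of its list. Scnn1a was chosen after its values were seen. Members and lists were chosen with earlier results of these data known, and promoter motifs later still. Members were found by the array's symbols. Exons and UTRs of the probes were not analysed here. The number of arrays limits the precision.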

Additional observations from a re-analysis of the deposited data

How the results depend on the processing

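The count of genes past the threshold depended on the processing. It was 9 in the main processing, 10 with no filter and 10 with a stricter filter. From 9 it became 5 with an offset of 0 (3 of them shared), 0 with the scanner software's log ratio, 0 with median centring, 17 with a gene's probes averaged (16 higher and 1 lower), 23 probes in the fit over probes (22 and 1), and 80 with a robust prior that follows intensity (59 and 21). The cause was not tested. Clock members past the threshold numbered 0 in each of these. The companion genes described here past it also numbered 0 in each. Per1 turned to -0.0053 with median centring. At an unadjusted p under 0.05 there was 1 member, Dbp, except that the scanner software's ratio added Per2 and median centring left 0. The median of the regulators of PER and CRY, 0.043, was -0.016 without array 2. Repressors minus activators ranged from -0.080 to 0.11 when either array was left out. The fit without replicate 1 or 2 gives values and no test, since no residual degree of freedom is left. The ratio within each array already pairs the conditions, and no further block could be fitted. Dim probes (Per2, Per3, Cry1 and Nr1d1, and among the companion genes Rora, Rorb, Fosb and Zbtb16) limit what can be read of those genes.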
